A study of Homo sapiens with 8 samples.

Results

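Cells of SK-UT-1, a uterine leiomyosarcoma line, received 5 µM TP-472, an inhibitor of the bromodomain proteins BRD9 and BRD7, or its DMSO vehicle for 48 h, and RNA was sequenced from 4 libraries of each group. The sample descriptions give no genetic change for either group, and the results hold for this line and this dose and time. This section describes 10 genes of the epidermal growth factor (EGF) system by name: the ligand genes HBEGF, AREG, EREG, TGFA, BTC and NRG1, the receptor genes EGFR, ERBB2 and ERBB3, and ERRFI1, an inhibitor of the receptors. They are 10 of the 60282 genes listed. Counts above 0 in any library were found for 33192 of these. The 10 genes were chosen with their difference between TP-472-treated and vehicle-treated cells in view, so their values on that contrast are given as a description, with no test.

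The libraries held 32574716 to 38545695 estimated counts each, and levels are given as CPM (read counts relative to the size of the library) after scaling of the libraries by the TMM method. Vehicle replicate 3 stood apart from the other libraries. Its median Spearman correlation over genes with its own group was 0.914, against 0.988 to 0.989 for the other vehicle libraries and 0.993 to 0.997 for the TP-472 libraries. It was also the library with the fewest counts. Fold changes and counts of called genes are given with and without it where it moved them.

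The identity of the cells was read from 9 smooth muscle markers. ACTA2, the smooth muscle actin, was at 160 ± 16.7 CPM (SD, n = 4) in vehicle-treated cells, CALD1 (caldesmon) at 199 ± 15.4 CPM and TAGLN (transgelin) at 32.2 ± 3.39 CPM. MYH11, the smooth muscle myosin heavy chain, had 1 count in all vehicle libraries together, and MYOCD, the transcription factor myocardin, had 6. MYH11 and MYOCD were therefore near 0, as far as RNA at this depth shows. DES, LMOD1 and CNN1 were at means of 1.25 to 3.24 CPM with vehicle. SMTN (smoothelin) was at 81.3 ± 51.0 CPM with vehicle, with 158 CPM in vehicle replicate 3, so the markers of the list did not all go the same way. Of the 7 smooth muscle markers that could be tested, 3 (DES, TAGLN and LMOD1) were called lower with TP-472 and 0 higher (42.9%, beside 26.9% of all genes tested), and without vehicle replicate 3 ACTA2 was called lower too. The summed level of the 9 markers was 438 to 522 CPM in the vehicle libraries, highest in vehicle replicate 3, and 370 to 379 CPM in the TP-472 libraries.

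Markers of other cell types were low. The 5 epithelial markers summed to 17.5 to 23.0 CPM in the vehicle libraries and 20.3 to 26.7 CPM in the TP-472 libraries. KRT18 was higher in TP-472-treated cells (7.37 ± 0.866 to 15.6 ± 1.47 CPM) and was there the most abundant of them, and KRT19 was lower (8.86 ± 1.76 to 4.91 ± 1.15 CPM). EPCAM, an epithelial adhesion molecule, had 103 counts in the vehicle libraries together and 36 with TP-472, without overlap, a ratio of 0.333 (95% counting interval 0.221 to 0.491). CDH1, the epithelial cadherin, was under 1 CPM in every library. The 3 endothelial markers summed to 0.143 CPM or less in each vehicle library and to 0.413 to 0.579 CPM in the TP-472 libraries, with CDH5 at 0 counts in the vehicle libraries. The 4 leukocyte markers summed to 0.449 to 0.721 CPM and to 0.800 to 1.07 CPM, nearly all of it from CD14, with CD3E at 0 in every library. The part of these differences in the values below was not tested. In such bulk RNA, a lower share of cells that express a gene and less of its RNA in each cell cannot be told apart.

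EGF-family ligands are made as membrane-bound precursors and are released by proteases of the ADAM family. HBEGF, AREG, EREG, TGFA and BTC bind EGFR, and NRG1 binds ERBB3 and ERBB4. Receptors pair upon binding. ERBB2 has no known ligand of its own and serves as a partner, and ERBB3 has little kinase activity and signals through its partners. Paired receptors activate the RAS, RAF, MEK and ERK kinase cascade, and cells limit the signal through inhibitors such as ERRFI1, also known as MIG6, which binds the kinase domain of EGFR and ERBB2. Several of the ligands and ERRFI1 are known to be induced by the same cascade.

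The bases upstream of 4 of the genes are shown because these were higher with TP-472, their groups did not overlap, and the RefSeq promoter table (GRCh38.p14) held a nearly whole upstream window for them. Each is written 5′ to 3′ on the strand of the gene and ends before the first transcript start annotated in GENCODE 29 or RefSeq. The windows are chr5:140346632-140346853 on the minus strand for HBEGF, chr4:74444886-74445133 on the plus strand for AREG, chr4:74364895-74365142 on the plus strand for EREG and chr1:8026310-8026559 on the minus strand for ERRFI1. Capitals mark matches on either strand to the AP-1 site TGANTCA, the cAMP response element TGACGTCA, the ETS core CCGGAA, the GC box GGGCGG, the TATA box TATAAA or the CArG box.
HBEGF: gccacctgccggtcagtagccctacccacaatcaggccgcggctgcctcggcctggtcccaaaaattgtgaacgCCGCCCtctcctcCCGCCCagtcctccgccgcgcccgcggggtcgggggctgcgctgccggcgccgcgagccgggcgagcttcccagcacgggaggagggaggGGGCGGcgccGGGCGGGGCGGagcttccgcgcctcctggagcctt
AREG: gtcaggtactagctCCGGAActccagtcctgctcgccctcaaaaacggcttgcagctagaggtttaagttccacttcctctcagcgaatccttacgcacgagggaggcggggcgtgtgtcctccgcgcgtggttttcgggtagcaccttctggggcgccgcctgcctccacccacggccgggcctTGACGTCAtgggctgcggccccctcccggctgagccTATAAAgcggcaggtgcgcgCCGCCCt
EREG: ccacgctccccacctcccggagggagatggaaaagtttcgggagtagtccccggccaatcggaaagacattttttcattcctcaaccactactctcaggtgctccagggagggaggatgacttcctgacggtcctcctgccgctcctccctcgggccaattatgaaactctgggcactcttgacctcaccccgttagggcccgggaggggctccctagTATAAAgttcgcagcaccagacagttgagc
ERRFI1: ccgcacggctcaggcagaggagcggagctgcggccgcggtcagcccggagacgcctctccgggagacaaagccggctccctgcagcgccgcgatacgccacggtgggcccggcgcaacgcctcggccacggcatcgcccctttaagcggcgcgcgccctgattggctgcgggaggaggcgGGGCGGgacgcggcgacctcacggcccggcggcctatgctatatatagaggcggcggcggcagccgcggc

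The 4 windows differed in these letters. The HBEGF window held 5 GC boxes, of which a pair overlaps by their shared bases, and the ERRFI1 window held 1. AREG held a cAMP response element at bases -65 to -58 from its RefSeq start and a TATA box at -29 to -24, besides an ETS core and a GC box. EREG held a TATA box at -32 to -27 and none of the other letters. Among 35116 windows of 250 upstream bases in the table, 1.65% held the cAMP response element, 10.7% the TATA box, 14.5% the ETS core, 42.6% the GC box, 6.57% the AP-1 site and 1.16% the CArG box. The NF-kB pattern (GGG and CC with any 5 bases between them) was searched too but occurred in 54.4% of all windows and was not marked. The table held windows for 8 of the 10 genes. NRG1 and ERBB3 had no entry. A match in letters is a description and does not show that a factor binds there.

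HBEGF, heparin-binding EGF-like growth factor (ENSG00000113070.8, chr5:140332843-140346631, minus strand, GRCh38), had the highest level per kb in both groups of HBEGF, AREG, EREG, TGFA and BTC. Its level was 1.44, 1.49, 1.07 and 1.74 CPM in vehicle replicates 1 to 4 and 10.2, 11.9, 11.5 and 12.5 CPM in TP-472 replicates 1 to 4. All TP-472 libraries lay above all vehicle libraries, and vehicle replicate 3 was the lowest. The means of 1.43 ± 0.278 CPM with vehicle and 11.5 ± 0.984 CPM with TP-472 (SD over 4 libraries) had a ratio of 8.05, and edgeR gave a log2 fold change of 3.005 with a standard error of 0.18. Without vehicle replicate 3 the log2 fold change was 2.89.

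AREG (amphiregulin, ENSG00000109321.11, chr4:74445134-74455009, plus strand) was nearly silent in vehicle-treated cells, with 3, 2, 0 and 5 counts in replicates 1 to 4. It had 28, 32, 40 and 40 counts with TP-472. The groups did not overlap, and the lowest TP-472 library held more counts than all vehicle libraries together, which had 10. The ratio of summed counts, scaled for library size, was 13.3 with an exact 95% interval of 7.04 to 28.4. This interval, like those below, covers counting error only. Without vehicle replicate 3 the ratio was 10.1 (5.31 to 21.5).

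EREG (epiregulin, ENSG00000124882.4, chr4:74365143-74388751, plus strand) lies on the same strand, with 80.0 kb between its start and that of AREG. It had 5, 8, 2 and 6 counts in the vehicle libraries and 52, 28, 23 and 43 counts in the TP-472 libraries. All TP-472 libraries were higher, with replicates 1 and 4 well above replicates 2 and 3. The ratio of summed counts was 6.62 (4.18 to 11.02), and 5.53 (3.41 to 9.44) without vehicle replicate 3.

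TGFA (transforming growth factor alpha, ENSG00000163235.16, chr2:70447280-70554193, minus strand) had 9, 6, 8 and 7 counts in the vehicle libraries and 42, 24, 41 and 51 counts with TP-472. TP-472 replicate 2 was the lowest of its group and still above the vehicle libraries. The ratio was 5.02 (3.38 to 7.68), and 5.16 (3.29 to 8.48) without vehicle replicate 3.

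BTC (betacellulin, ENSG00000174808.12, chr4:74744759-74794686, minus strand) was at the edge of detection. Its 1, 4, 0 and 4 counts in the vehicle libraries and 3, 2, 8 and 3 counts with TP-472 overlapped. The ratio of 1.69 had an interval of 0.705 to 4.35, so that a difference was not detectable at this depth. It was 1.28 (0.532 to 3.28) without vehicle replicate 3. Without TP-472 replicate 3, which held 8 of the 16 counts of its group, the log2 ratio was 0.16. AREG, EREG, TGFA and BTC were all below the filter of more than 1 CPM in at least 4 libraries, and so were in none of the fits that used it. Only the alternative with no filter held them, and their values there are not given.

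NRG1, neuregulin 1 (ENSG00000157168.20, chr8:31639386-32767959, plus strand), which signals through ERBB3 and ERBB4 and not through EGFR, differed in the other direction. Its level was 6.55, 7.14, 6.63 and 7.60 CPM in the vehicle libraries and 3.56, 3.49, 3.18 and 4.004 CPM in the TP-472 libraries. The groups did not overlap, and vehicle replicate 3 lay among the other vehicle libraries. The group means were 6.98 ± 0.489 CPM with vehicle and 3.56 ± 0.339 CPM with TP-472 (mean ± SD of 4 libraries), and edgeR gave a log2 fold change of −0.97 with a standard error of 0.14 and of −0.99 without vehicle replicate 3.

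**Figure D1:**
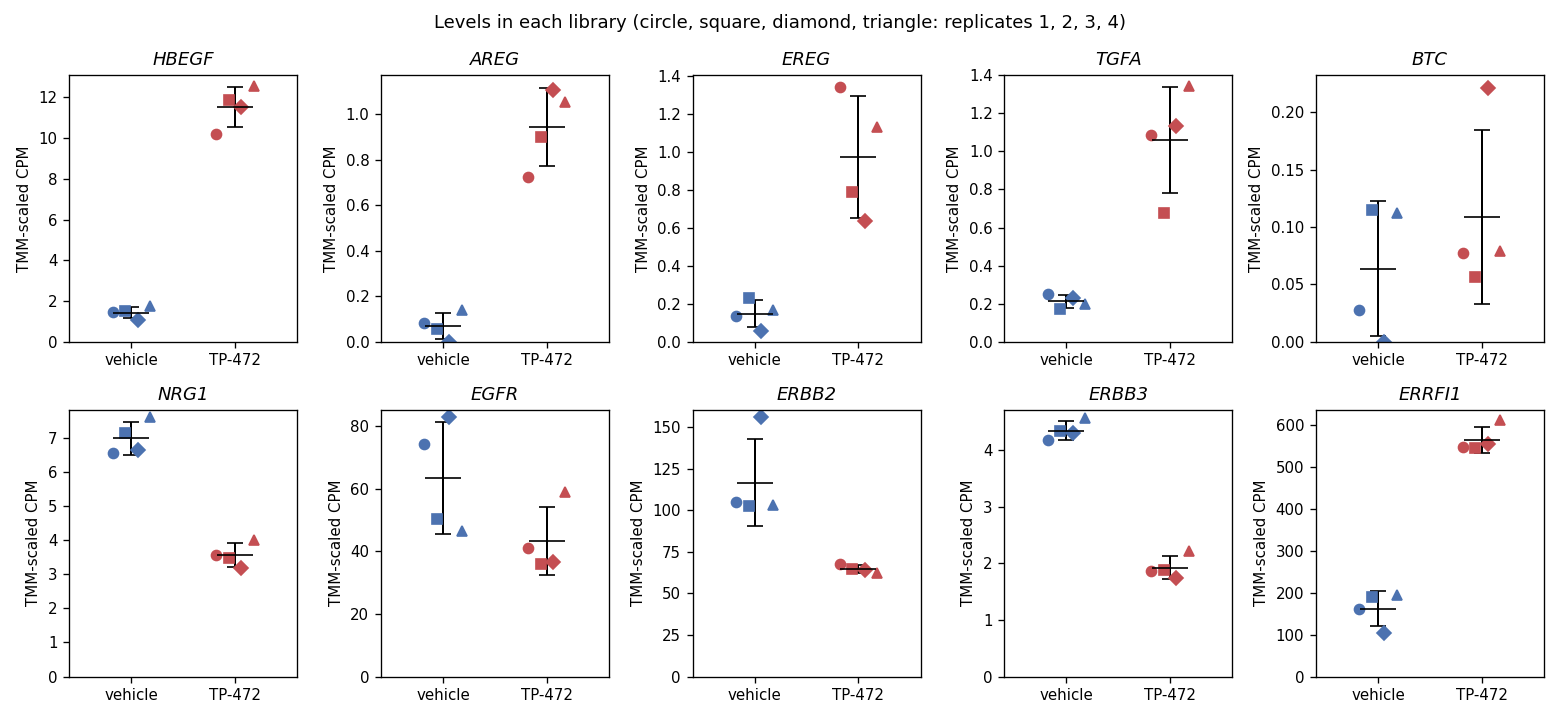
Level of each of the 10 genes in TMM-scaled CPM (vertical axis, linear and from 0) in the 4 vehicle (blue) and 4 TP-472 (red) libraries. Points are libraries, horizontal lines are group means and bars are SD; the groups overlap for BTC and EGFR and are apart for the other 8 genes.

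The makeup of the ligand transcripts was compared per length, in CPM per kb of the joined exons of each gene. In vehicle-treated cells NRG1 made up 50.9% ± 5.43 and HBEGF 38.6% ± 2.13 of the summed level of the 6 ligands (SD, n = 4). In TP-472-treated cells HBEGF made up 74.5% ± 1.97, AREG 11.1% ± 1.42 and NRG1 6.14% ± 0.582. The summed level was 1.23 ± 0.185 CPM per kb with vehicle and 5.13 ± 0.424 CPM per kb with TP-472. NRG1 has many transcripts of unequal length, and with the median transcript length of each gene the share of NRG1 was 77.3% ± 2.92 with vehicle and 18.6% ± 1.27 with TP-472, and that of HBEGF 16.0% ± 1.84 and 61.2% ± 3.06. With that length the summed level was 7.23 ± 0.680 CPM per kb with vehicle and 15.34 ± 1.205 CPM per kb with TP-472, so the size of its difference rests on the length used. Of these 6, NRG1 led the vehicle libraries and HBEGF the TP-472 libraries under both lengths. EPGN, another EGF-family ligand, is not among the 6 and had a higher level per kb than either, at 5.61 ± 0.885 CPM per kb with vehicle and 7.36 ± 0.491 with TP-472, so these shares are not shares of all ligand transcripts.

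**Figure D2:**
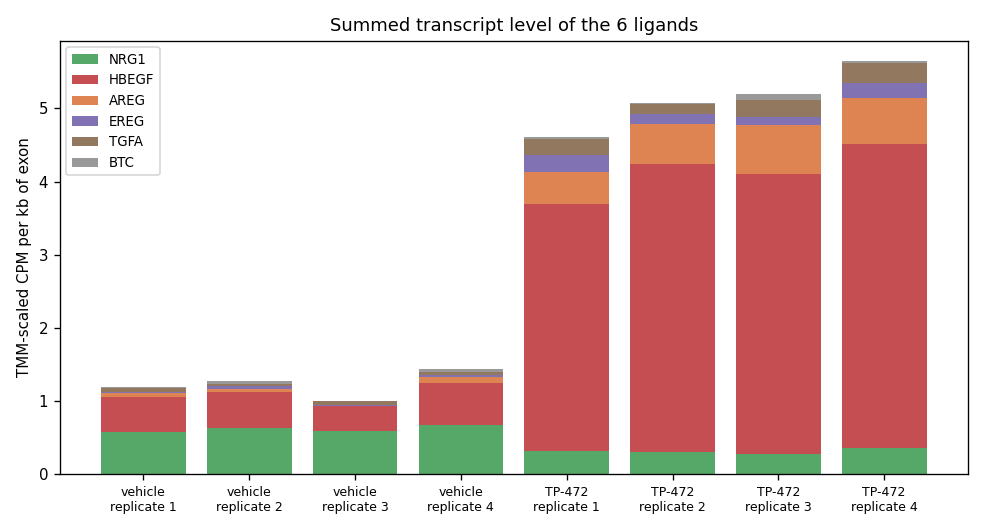
Summed level of the 6 ligand genes in each library, in TMM-scaled CPM per kb of exon (vertical axis, from 0), split by gene. The bars of vehicle libraries hold mostly NRG1 and HBEGF and reach a mean of 1.23 CPM per kb; those of TP-472 libraries are mostly HBEGF and reach a mean of 5.13 CPM per kb.

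Among the receptors, ERBB2 and ERBB3 were lower in every TP-472 library than in any vehicle library, and the values of EGFR overlapped. EGFR (ENSG00000146648.18, chr7:55019021-55211628, plus strand), the receptor of the ligands that were higher, was at 74.5, 50.3, 82.9 and 46.5 CPM in the vehicle libraries and at 41.1, 36.1, 36.6 and 59.1 CPM in the TP-472 libraries. TP-472 replicate 4 was above vehicle replicates 2 and 4. The group means were 63.5 ± 17.9 CPM with vehicle and 43.2 ± 10.8 CPM with TP-472 (mean ± SD of 4 libraries), and edgeR gave a log2 fold change of −0.56 with a standard error of 0.23. It was −0.40 without vehicle replicate 3 and −0.74 without TP-472 replicate 4, where EGFR was called lower.

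ERBB2 (ENSG00000141736.13, chr17:39687914-39730426, plus strand), the partner receptor without a ligand, was at 104.9, 102.7, 156 and 103 CPM in the vehicle libraries and at 67.8, 64.4, 64.2 and 62.3 CPM with TP-472. Vehicle replicate 3 was far above the rest of its group, and the TP-472 libraries lay close together. The group means were 117 ± 26.2 CPM with vehicle and 64.7 ± 2.31 CPM with TP-472 (mean ± SD of 4 libraries), and edgeR gave a log2 fold change of −0.85 with a standard error of 0.15. Without vehicle replicate 3 it was −0.68, and with the trend over GC content removed from each library it was −0.55, which missed the fold threshold of 1.5 used below. The direction was the same in each of these fits.

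ERBB3 (ENSG00000065361.16, chr12:56076799-56103505, plus strand), a receptor of NRG1, was at 4.17, 4.33, 4.30 and 4.57 CPM with vehicle and at 1.86, 1.88, 1.74 and 2.21 CPM with TP-472. Both groups were tight and far apart. The group means were 4.34 ± 0.167 CPM with vehicle and 1.92 ± 0.201 CPM with TP-472 (mean ± SD of 4 libraries), and edgeR gave a log2 fold change of −1.17 with a standard error of 0.15 and of −1.18 without vehicle replicate 3. NRG1 and its receptor ERBB3 were thus both lower. ERBB4, the other receptor of NRG1, had 2 counts in the vehicle libraries together and 3 with TP-472.

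ERRFI1 (ENSG00000116285.13, chr1:8004404-8026308, minus strand), the feedback inhibitor, was at 160, 190.2, 104 and 195 CPM in the vehicle libraries and at 549, 545, 555 and 613 CPM in the TP-472 libraries. The groups did not overlap. Vehicle replicate 3 was the lowest of all and TP-472 replicate 4 the highest. The group means were 162 ± 41.7 CPM with vehicle and 565 ± 31.6 CPM with TP-472 (mean ± SD of 4 libraries), and edgeR gave a log2 fold change of 1.80 with a standard error of 0.19 and of 1.64 without vehicle replicate 3.

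**Figure D3:**
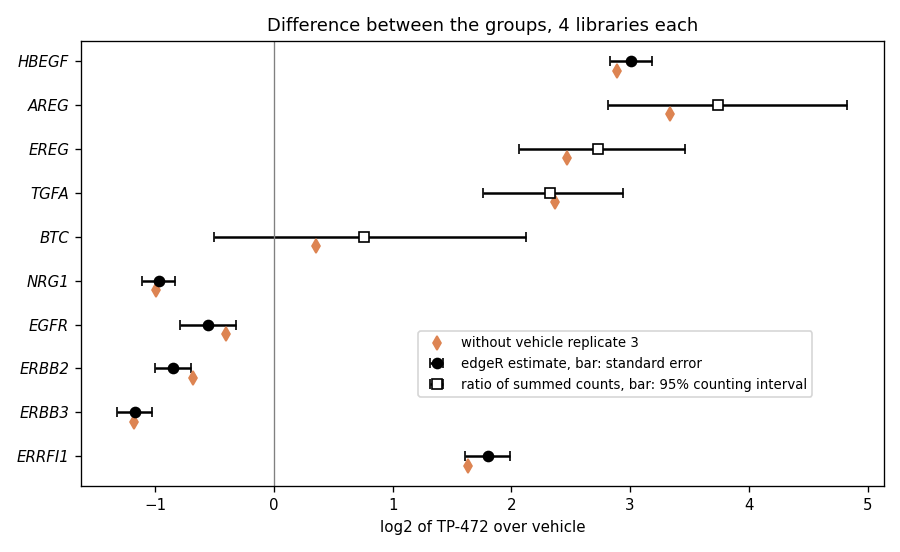
Log2 of the level in TP-472 over vehicle (horizontal axis) for each of the 10 genes. Filled points are edgeR estimates with the standard error, open squares are ratios of summed counts with a 95% counting interval for the genes below the filter, and diamonds leave out vehicle replicate 3; HBEGF, AREG, EREG, TGFA and ERRFI1 lie to the right of 0, NRG1, EGFR, ERBB2 and ERBB3 to the left, and the interval of BTC holds 0.

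In the fit across the 14073 genes that passed the filter, 26.9% were called, at an adjusted p under 0.05 and a fold change over 1.5, 12.0% with TP-472 above vehicle and 14.9% with TP-472 below (25.5% in all without vehicle replicate 3). Of the 10 genes, 6 were in the fit, and 5 of these were called, HBEGF and ERRFI1 higher and NRG1, ERBB2 and ERBB3 lower. EGFR was not called. Nothing is read from this count, since the genes were chosen on this contrast. The groups did not overlap in 5 genes with TP-472 above and 3 with TP-472 below. Among the genes tested, 45.4% did not overlap, 23.8% with TP-472 above and 21.6% with TP-472 below. AREG, EREG and TGFA, counted among the 5, were below the filter, so these shares do not cover them. More genes had a count in each TP-472 library (25363 to 26211) than in any vehicle library (23325 to 23939). No share was computed for genes below the filter.

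The 10 genes covered a wide range of levels. Per kb of joined exons in vehicle-treated cells, ERRFI1 was the highest, at 38.8 ± 9.97 CPM per kb, followed by ERBB2 at 11.3 ± 2.54, EGFR at 5.08 ± 1.43 and NRG1 at 0.616 ± 0.0432 (SD, n = 4 each). The ranges of these neighbours did not overlap. ERBB3, at 0.481 ± 0.0185 CPM per kb, and HBEGF, at 0.475 ± 0.0920, did not differ beyond their spread with this length. TGFA, AREG, EREG and BTC were the lowest, and the ranges of neighbours among them overlapped.

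In TP-472-treated cells the order was ERRFI1 at 135 ± 7.56 CPM per kb, ERBB2 at 6.27 ± 0.224, HBEGF at 3.82 ± 0.326 and EGFR at 3.45 ± 0.865, and the ranges of HBEGF and EGFR overlapped. AREG at 0.574 ± 0.105 and NRG1 at 0.314 ± 0.0299 CPM per kb came next, without overlap. TGFA, ERBB3 and EREG lay below them at 0.171 to 0.214 CPM per kb with overlapping ranges, and BTC remained the lowest. The order of several of these genes rests on the length used. With the median transcript length instead, for example, ERBB3 stood above NRG1 in both groups, with overlapping ranges in TP-472-treated cells, and ERBB3 and NRG1 stood above AREG in TP-472-treated cells. ERRFI1 stayed above ERBB2, with overlapping ranges in vehicle-treated cells. With that length ERBB3, at 7.57 ± 0.291 CPM per kb, stood above HBEGF, at 1.17 ± 0.226, in vehicle-treated cells, without overlap. In TP-472-treated cells EGFR, at 19.3 ± 4.84 CPM per kb, stood above HBEGF, at 9.38 ± 0.800, also without overlap.

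The pathway around these genes was followed in 71 further genes, in lists ordered from ligand to response, of which 63 passed the filter. In edgeR 15 of them were higher and 9 lower with TP-472 (38.1%, beside 26.9% of all genes), with a median log2 fold change of 0.18 beside −0.026 over all genes tested, and without vehicle replicate 3 the counts were 18 and 4. Most of the higher genes belonged to the ERK-induced list and most of the lower genes to the adaptors and kinases. The lists were drawn up with earlier results of these data known. Their shares and adjusted p-values are therefore a description and no independent support.

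Of the other ligands and ERBB4, only EPGN (epigen) and NRG2 passed the filter, and 0 of these 2 genes were called, while EGF, NRG3, NRG4 and ERBB4 did not reach it. EGF itself had 47 counts in the vehicle libraries together and 27 with TP-472, with overlapping groups, and NRG4 had 30 and 14, without overlap. EPGN was at 10.4, 11.7, 7.93 and 10.6 CPM in the vehicle libraries and 14.6, 12.8, 12.6 and 13.4 CPM with TP-472. The groups did not overlap, and the log2 fold change was 0.39 with a standard error of 0.14 (edgeR adjusted p = 0.0594). With vehicle replicate 3 left out it was 0.29 (edgeR adjusted p = 0.0182), which missed the threshold on fold size alone. The level of EPGN per kb was above those of HBEGF and NRG1 in both groups. Its start lies 5.37 kb beyond the annotated end of MTHFD2L on the same strand, and MTHFD2L, a mitochondrial folate enzyme, was higher with TP-472 (28.6 ± 10.4 to 51.3 ± 2.71 CPM, log2 fold change 0.84 with a standard error of 0.27, edgeR adjusted p = 0.0360, and 0.61 without vehicle replicate 3). Whether reads from MTHFD2L add to the counts of EPGN was not tested.

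EPGN, EREG, AREG and BTC form a cluster on chromosome 4 that spans 486 kb from the start of EPGN to the end of BTC. The members of the cluster differed in level and in size of difference. EREG and AREG had non-overlapping groups and ratios of 6.62 and 13.3, EPGN had a higher level per kb than these and was not called, and the counts of BTC overlapped.

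**Figure D4:**
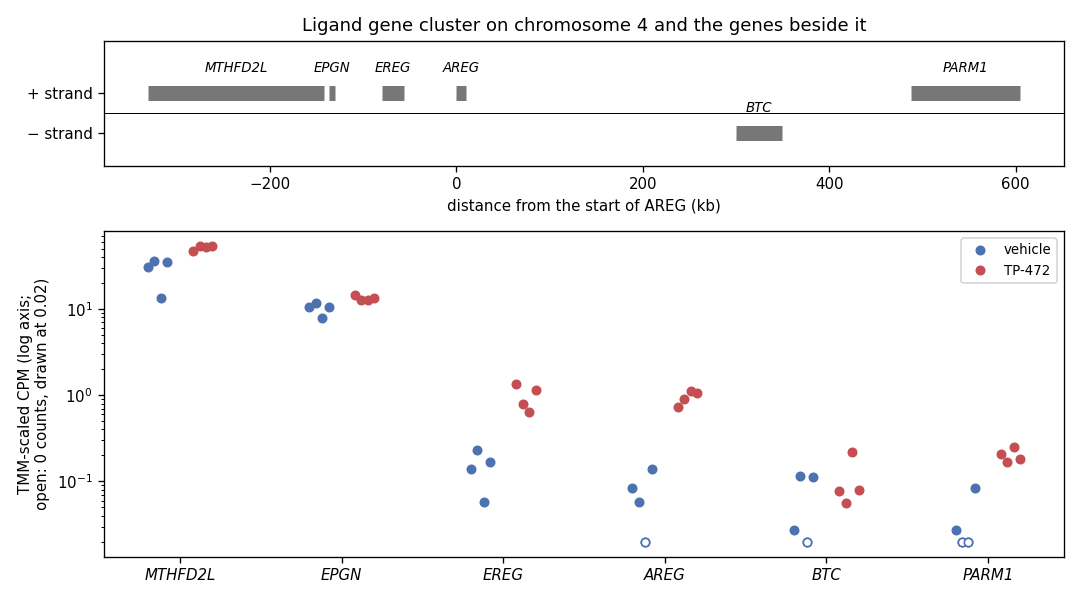
Top, the ligand genes of the chromosome 4 cluster and the genes MTHFD2L and PARM1 beside them, by distance in kb from the start of AREG and by strand. Bottom, their level in each vehicle (blue) and TP-472 (red) library in TMM-scaled CPM on a log axis, with open points for libraries at 0 counts, which shows EREG and AREG apart between the groups and BTC overlapping.

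Of 12 tested genes of ligand release, 1 was called higher and 1 lower (16.7%, beside 26.9% of all genes), with a median log2 fold change of 0.077. TIMP3, an inhibitor of ADAM17, rose from 17.2 ± 1.38 to 27.0 ± 1.70 CPM (log2 fold change 0.65, standard error 0.11, edgeR adjusted p = 0.00247), and with the GC trend removed its log2 fold change was 0.57, which missed the fold threshold. RHBDF1, a partner of ADAM17, fell from 29.04 ± 14.5 to 16.3 ± 0.463 CPM (log2 fold change −0.84, standard error 0.28, edgeR adjusted p = 0.0445), but vehicle replicate 3 set the size of that difference, which was −0.42 without it and then below the fold threshold. The call of RHBDF1 held under 6 of 16 alternatives. ADAM17, the main sheddase of several of these ligands, was not called, with a log2 fold change of 0.28 (0.12 without vehicle replicate 3). ADAM10, another sheddase, was not called either, with −0.36, and at −0.54 without vehicle replicate 3 it still missed the fold threshold. ADAM12 was below the filter. Without vehicle replicate 3 the counts were 2 higher, TIMP3 and ADAM8, and 0 lower.

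Between the receptors and ERK, 7 of 18 genes were lower and 1 was higher (44.4%, beside 26.9% of all genes), with a median log2 fold change of −0.34 (and of −0.40 without vehicle replicate 3). The lower count fell to 2 with the GC trend removed, to 3 without vehicle replicate 3 and to 4 without TP-472 replicate 1, 2 or 3. MAP2K1, the kinase MEK1, was the gene that rose, from 43.5 ± 6.68 to 69.4 ± 1.22 CPM (log2 fold change 0.67, standard error 0.12, edgeR adjusted p = 0.00383). Its relative MAP2K2 (MEK2) had a log2 fold change of −0.99, with a standard error of 0.32 (edgeR adjusted p = 0.0374), and of −0.51 without vehicle replicate 3, and its call held under 7 of 16 alternatives. GAB2, a docking protein (−0.86, SE 0.13, adjusted p = 0.00176), and MAPK3, the kinase ERK1 (−0.78, SE 0.16, adjusted p = 0.00727), were lower in edgeR, at −0.76 and −0.70 without vehicle replicate 3, but with the GC trend removed MAPK3 was at −0.48 and missed the fold threshold. The adaptor SHC1 (log2 fold change −0.69, SE 0.12, edgeR adjusted p = 0.00284), the kinase ARAF (−0.67, SE 0.20, adjusted p = 0.0281) and the phospholipase PLCG1 (−0.63, SE 0.16, adjusted p = 0.0146) were lower too. These 3 genes and MAP2K2 missed the fold threshold both without vehicle replicate 3 and with the GC trend removed, and ARAF also lost its call whichever TP-472 library was left out. In the fit without vehicle replicate 3, 3 genes of the list were called lower (GAB2, MAPK3 and SOS1) and 2 higher (MAP2K1 and HRAS).

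Of 14 inhibitors and down-regulators of the receptors other than ERRFI1, 2 were higher and 1 lower (21.4%, beside 26.9% of all genes), with a median log2 fold change of 0.15. Without vehicle replicate 3, 1 was higher (PTPN2) and 1 lower (TNK2), and the median was 0.070. SOCS4, which promotes turnover of EGFR, had a log2 fold change of 0.78 (SE 0.24, edgeR adjusted p = 0.0324) and of 0.57 without vehicle replicate 3, which missed the fold threshold. The call of SOCS4 held under 10 of 16 alternatives. PTPN2, a tyrosine phosphatase, rose from 35.7 ± 7.36 to 59.6 ± 0.833 CPM (log2 fold change 0.74, SE 0.16, edgeR adjusted p = 0.00706), and by 0.60 on the log2 scale without that library. TNK2, a kinase linked to the turnover of EGFR, had a log2 fold change of −1.38 (SE 0.45, edgeR adjusted p = 0.0397) that was −0.61 without vehicle replicate 3, where it was at 84.9 CPM against 21.1 to 24.7 CPM in the other vehicle libraries. Its call held under 10 of 16 alternatives, and was lost with limma-voom, with replicate number as a block and whichever TP-472 library was left out (adjusted p from 4.76e-04 to 0.0976 over the alternatives).

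Of the 17 tested genes known to be induced through ERK, 11 were higher and 0 lower with TP-472 (64.7%, beside 12.0% of all genes called higher), with a median log2 fold change of 1.07 beside −0.026 over all genes. Without vehicle replicate 3, 13 were higher, with EGR1 and FOS added, and the median was 1.31. This list too was drawn up with earlier results of these data known, so its share and the adjusted p-values below are a description. The dual-specificity phosphatases, which act on ERK, led with IER3. DUSP6 was at 4.73 ± 0.763 CPM with vehicle and 29.4 ± 1.15 CPM with TP-472 (log2 fold change 2.63, standard error 0.14, edgeR adjusted p = 1.74e-05), and DUSP5 at 10.4 ± 0.548 and 47.0 ± 3.02 CPM (2.17, standard error 0.10, adjusted p = 1.74e-05). IER3, an early-response gene, rose from 9.13 ± 2.32 to 57.1 ± 5.52 CPM (2.64, standard error 0.19, edgeR adjusted p = 5.95e-05). The transcription factor ETV5 (1.68, SE 0.11, adjusted p = 3.86e-05), the inhibitor SPRY4 (1.56, SE 0.26, adjusted p = 0.00255) and the AP-1 subunit FOSL1 (1.52, SE 0.39, adjusted p = 0.0158) were higher as well in edgeR, at 1.64, 1.83 and 2.11 without vehicle replicate 3.

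Below the filter, DUSP4 had 11 counts in the vehicle libraries and 100 in the TP-472 libraries, a ratio of 8.66 (95% counting interval 4.64 to 17.9). SPRY1 had 4 counts in the vehicle libraries, all of them in replicate 4, and 75 with TP-472. EGR3 had 19, 9, 44 and 17 counts in the vehicle libraries and 20, 31, 39 and 47 with TP-472, so its groups overlapped and vehicle replicate 3 held the most counts of its group. The early genes EGR1 and FOS were in the fit and were not called on all libraries. EGR1 was at 38.6 CPM in vehicle replicate 3 and at 7.43 to 11.03 CPM in the other vehicle libraries, against 12.98 to 18.5 CPM with TP-472.

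**Figure D5:**
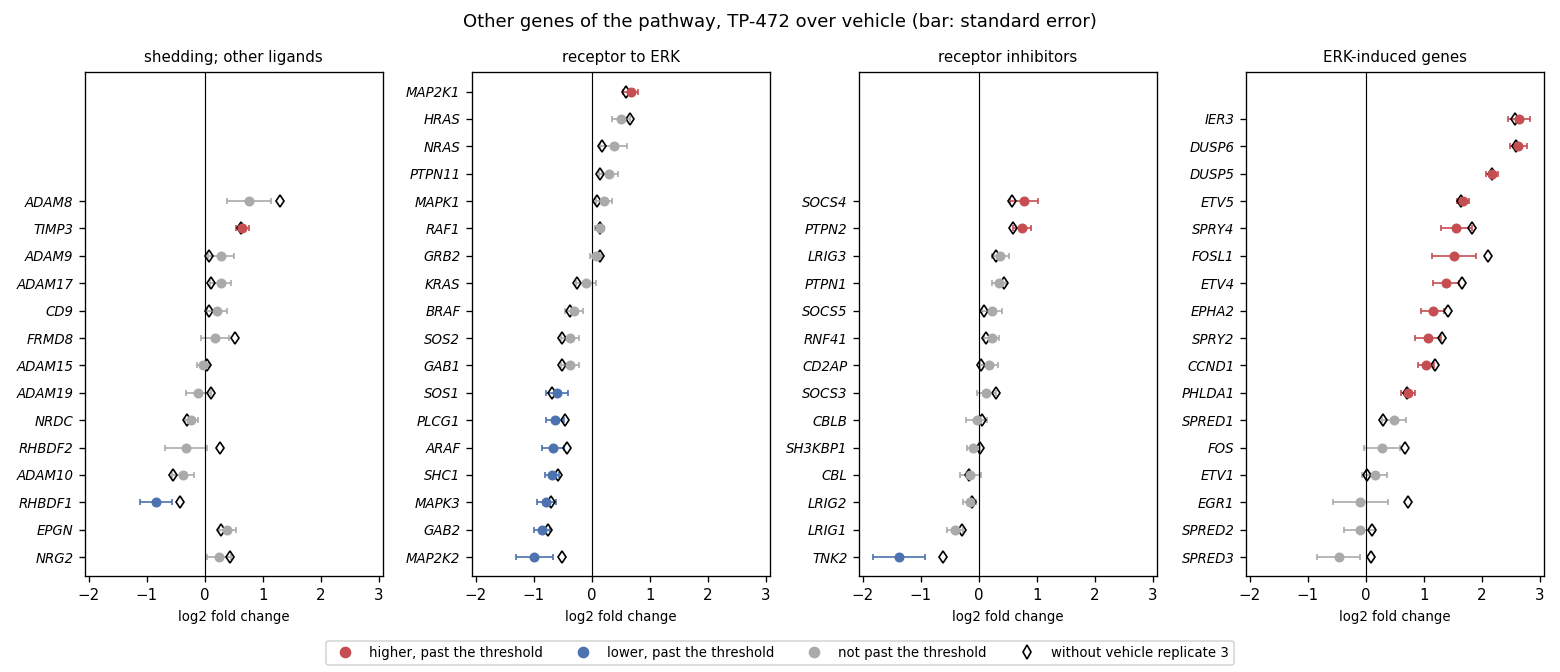
Log2 fold change (horizontal axis, TP-472 over vehicle) with its standard error for the 63 tested pathway genes, by list; EPGN and NRG2 stand below the genes of ligand release. Red and blue points passed the threshold as higher or lower, grey points did not, and open diamonds leave out vehicle replicate 3; 11 of the 17 ERK-induced genes are red, and several blue points move towards 0 without that library.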

How the data were processed

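RNA of 4 vehicle-treated and 4 TP-472-treated samples of SK-UT-1 was sequenced by the authors. The deposited values are estimated counts: the authors ran salmon (version 1.4.0 in the submitters' processing notes) and summed transcripts to genes with tximport and GENCODE release 34, on GRCh38, without normalization or filter. The study's methods describe strand-specific libraries but the kit named with the samples is not described as such, so reads of overlapping genes may not be separable. The study states in general that its experiments had biological replicates, and the sample descriptions do not say whether the libraries come from separate cultures. If they do not, p-values measure only the spread between these samples.

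Counts were rounded. Genes over 1 CPM in at least 4 libraries were kept (14073), libraries were scaled by TMM, and edgeR 4.0.16 (R 4.3.3) compared the groups by its quasi-likelihood F test, with Benjamini-Hochberg adjustment over all genes tested and no covariate. Genes were called at an adjusted p under 0.05 and a fold change over 1.5. The methods of the study give only such a threshold. For genes under the filter, the ratio of summed counts has an exact 95% interval (conditional binomial, scipy 1.17.1). Library totals of 32574716 to 38545695 make counting error small except for genes near or under the filter.

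The genes and the pathway lists were chosen with earlier results of these data known. Named are all 10 genes, the cell type markers, listed genes below the filter, the called genes of each pathway list (at most 6 per list and direction, by size), and the 5 genes most correlated with HBEGF and with ERRFI1. Of these most correlated genes, 1 is not reported here. SOS1, HRAS, ADAM8, ADAM10, ADAM17, EGR1, FOS, MTHFD2L, EPGN and NRG2 were added after their values were seen. Positions and lengths are from GENCODE 29 on GRCh38.

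Alternatives were DESeq2 1.42.0, limma-voom 3.58.1, RLE and total-count scaling, no filter, a filter at 5 CPM, no fold limit, replicate number as a block and each library left out. Removal of the trend over GC content was a choice made after seeing the data. The main edgeR fit and the DESeq2 and limma-voom fits were first tested on simulated counts. That simulation had the same fixed dispersion for all genes and no outlying library. The other settings and calculations were not tested in this way. No library was a copy of another.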

Additional observations from a re-analysis of the deposited data

Results flagged for a closer look

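In 56 groups of 4 libraries (28 genes), the highest or lowest library lay far from the other 3 in 14. Vehicle replicate 3 was that library in 9 of them. For independent groups chance gives about 1 in 20, but these groups share their libraries. Most of the genes were also named because they were called, so the count is a description. Vehicle replicate 3 was high for ERBB2 (156 CPM against 103 to 105 CPM in the other vehicle libraries), RHBDF1 (50.7 against 21.3 to 22.7 CPM), SHC1 (395 against 296 to 309 CPM), GAB2 (21.9 against 16.8 to 17.1 CPM), ARAF (50.0 against 28.0 to 29.1 CPM), MAP2K2 (235 against 84.9 to 101 CPM) and TNK2 (84.9 against 21.1 to 24.7 CPM). It was low for SOCS4 (27.2 against 57.2 to 62.4 CPM) and PTPN2 (24.7 against 39.0 to 40.0 CPM).

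Among the TP-472 libraries, replicate 4 was high for ERRFI1 (613 CPM against 545 to 555 CPM), TIMP3 (29.6 against 26.0 to 26.3 CPM) and SOCS4 (101 against 85.1 to 87.2 CPM). Replicate 3 was low for MAP2K1 (67.5 against 69.8 to 70.1 CPM) and high for BTC (0.221 against 0.0562 to 0.0790 CPM), where it stands for 8 counts.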

How the results depend on the processing

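The 6 members in the fit kept the direction of their log2 fold change under every alternative run on them (ERBB3 had no value with the filter at 5 CPM), and the ratios of AREG, EREG, TGFA and BTC, recomputed with RLE and total-count scaling and with each library left out, kept theirs. The value of ERBB2 alone moved by more than the SD between replicates, to −0.55 with the trend over GC content removed, where it was not called. EGFR, not called, was called lower without TP-472 replicate 4 and under none of the other alternatives. The count of all genes called was 3789, and it ranged from 2672 of 11067 with a filter at 5 CPM to 5102 of 14073 with no fold limit (5090 of 33192 with no filter); with 1 library left out, 1303 to 1824 genes were higher and 1387 to 2399 lower. Of the pathway genes, with 1 library left out, 14 to 18 were higher and 4 to 9 lower. The lower calls depended most on the processing: with the GC trend removed, 3 pathway genes were lower instead of 9, 2 instead of 7 between the receptors and ERK, and 0 instead of 1 in ligand release, where limma-voom, total-count scaling and the replicate block gave 0 too. With 1 library left out, that list had 0 to 1 lower and 1 to 2 higher, the adaptors and kinases 3 to 7 lower and 1 to 2 higher, and the receptor inhibitors 0 to 1 lower and 1 to 2 higher. With the GC trend removed, 2 genes of ligand release (TIMP3 not among them), 2 adaptors and kinases and 1 other ligand were higher; without the fold limit, 2 adaptors and kinases were higher and 2 inhibitors lower, and limma-voom and the replicate block gave 0 lower inhibitors. The ERK-induced list had 11 to 13 higher and 0 lower with 1 library left out. Of the alternatives for the named pathway genes, 245 kept the call, 43 missed the threshold in the same direction, and 0 reversed. The causes were not tested. Replicate numbers did not pair the samples: same-numbered libraries had correlations of −0.0554, 0.116, −0.171 and −0.177 between their deviations from the group means, and a replicate block gave 3055 calls. Low depth limits AREG, EREG, TGFA and above all BTC.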

Other observations

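The genes whose levels followed HBEGF most closely over the 8 libraries, out of the 11070 genes whose mean reached 5 CPM, were GALNT18, SLC39A14, CXCL2, CXCL1 and DIPK2A, with Pearson r from 0.996 to 0.999. CXCL1 and CXCL2 encode chemokines and SLC39A14 a metal ion transporter. For ERRFI1 they included MFSD9, HAUS2, BIRC3 and TFRC, with r from 0.998 to 0.999. BIRC3 encodes an inhibitor of apoptosis and TFRC the transferrin receptor. Since the libraries fall into 2 groups, r mostly reflects the difference between the groups, and it is given as a description without a p.

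Beyond the EGF family, DES, the intermediate filament of muscle, fell from 3.24 ± 0.204 CPM with vehicle to 0.628 ± 0.168 CPM with TP-472 (mean ± SD of 4 libraries), with a log2 fold change of −2.36 (edgeR adjusted p = 1.89e-04), and −2.40 without vehicle replicate 3. MYH11 went the other way at very low level, with 1 count in the vehicle libraries together and 35 in the TP-472 libraries.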
